A study of Mus musculus with 9 samples.

Results

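V1 is 1 of the 10 clusters of visceral motor neurons, named V1 to V10, in a single nucleus RNA sequencing study of cholinergic neurons of the adult mouse spinal cord. Its members were the nuclei that the authors' annotation names V1, 798 of 5613 visceral motor neurons (14.2%) and of 16042 cholinergic nuclei. The name is a cluster number and has no link with the V1 class of ventral spinal interneurons. Nuclei came from 12 mice aged 8 weeks, heterozygous for Chat-IRES-Cre and for CAG-Sun1/sfGFP, a reporter that puts GFP on the nuclear envelope of any cell in which the *Chat* promoter has driven Cre, and stays on afterwards. GFP+ nuclei were sorted from 3 pools of 4 mice, replicate 1 with 2 males and 2 females, replicate 2 with males and replicate 3 with females. The cords of a pool gave 1 library each for the cervical, thoracic and lumbar/sacral region, 9 in all. No mouse was treated, and every group shared the genotype and the age.

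Visceral motor neurons are the preganglionic neurons of the autonomic nervous system. They sit mainly in the lateral horn of the thoracic and upper lumbar cord and in the sacral cord, and use acetylcholine to excite neurons of the sympathetic and parasympathetic ganglia and of the adrenal medulla. Many of them make neuronal nitric oxide synthase or a neuropeptide as well, and different target organs are served by partly different groups of these cells. *Zeb2*, a zinc finger transcription factor, and *Fbn2*, a fibrillin of the extracellular matrix, mark the class in this study.

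The markers of the class were present in V1. Values are given as CPM, which are the authors' model-corrected counts summed over the nuclei of a cluster in a library and scaled to 1000000. *Zeb2* ran from 565 to 843 CPM over the 9 V1 sums, with a median of 713, against means of 12.6 ± 16.1 in skeletal motor neurons and 6.68 ± 2.33 in cholinergic interneurons (SD, n = 9 libraries). *Fbn2* ran from 361 to 667 CPM in V1, with a median of 489.8. The markers of other cells were low. The interneuron markers, among them *Pax2*, *Mpped2*, *Ebf2* and *Ebf3*, summed to 29.1 to 108 CPM in V1, against 1226 CPM or more in the interneurons of every library. The 4 skeletal markers summed to 45.4 to 99.4 CPM in V1, against 604 CPM or more in skeletal motor neurons. Oligodendrocyte markers summed to 29.4 to 106 CPM and astrocyte markers to 11.3 to 29.4 CPM, and microglial markers to at most 73.9 CPM. *Aqp4* of astrocytes and *Tmem119* of microglia had no count in any V1 sum. Inhibitory neuron markers summed to 15.1 to 79.8 CPM in V1 and 26.6 to 70.6 CPM in V2 to V10, and the excitatory marker and the endothelial markers to at most 9.15 and 6.19 CPM in V1.

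The regional labels of 2 libraries went against their Hox genes, the transcription factors that encode position along the cord. In V1, *Hoxc5* was at 39.9 and 48.4 CPM in the cervical libraries of replicates 1 and 3, and at 113 and 106 CPM in their thoracic libraries. The library labelled cervical replicate 2 had 98.3 CPM and the library labelled thoracic replicate 2 had 28.5 CPM, each on the side of the other label. Over all cholinergic nuclei, *Hoxa9*, a gene of more caudal cord, was at 9.68 CPM in the library labelled cervical replicate 2 and at 0.507 CPM in that labelled thoracic replicate 2. It was at 0.412 and 0.213 CPM in the other cervical libraries and at 9.35 and 9.04 CPM in the other thoracic libraries. The labels were kept, and each thoracic and cervical result is given with and without these 2 libraries of the male pool. The V1 sums held 632095 to 1454511 corrected counts in cervical and thoracic libraries and 101977 to 176576 in lumbar/sacral libraries. In V1, 3 nuclei had a barcode sequence that was also found in another library, and 5 were called as doublets.

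V1 was present in every library and was scarce in the lumbar/sacral cord. It held 16.9%, 22.1% and 20.3% of the visceral nuclei in cervical replicates 1, 2 and 3, and 14.5%, 17.7% and 18.2% in the thoracic libraries. In the lumbar/sacral libraries its share was 3.42%, 5.78% and 6.37%, from 23, 26 and 24 nuclei. All lumbar/sacral shares lay below all others, and the cervical and thoracic shares overlapped. The mean was 5.19% ± 1.56 in lumbar/sacral libraries (SD, n = 3) and 18.3% ± 2.67 in the others (SD, n = 6), a difference of -13.1 percentage points. A two-sided exact permutation test of this difference gave p = 0.0119, the smallest that its 84 groupings allow. The exact permutation test over the 1680 assignments to 3 regions gave p = 0.0107. Neither call depended on the 2 libraries with contrary Hox genes, without which p was 0.0286 and 0.019 in the exact permutation tests. With all cholinergic nuclei as the denominator, the test over 3 regions gave an exact permutation p = 0.0786, and the lumbar/sacral difference kept p = 0.0238. On that denominator V1 was 0.889% to 1.47% of lumbar/sacral nuclei and 4.07% to 12.4% of the others. Both are shares of captured nuclei, so fewer V1 nuclei and more nuclei of other kinds cannot be told apart.

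**Figure D1:**
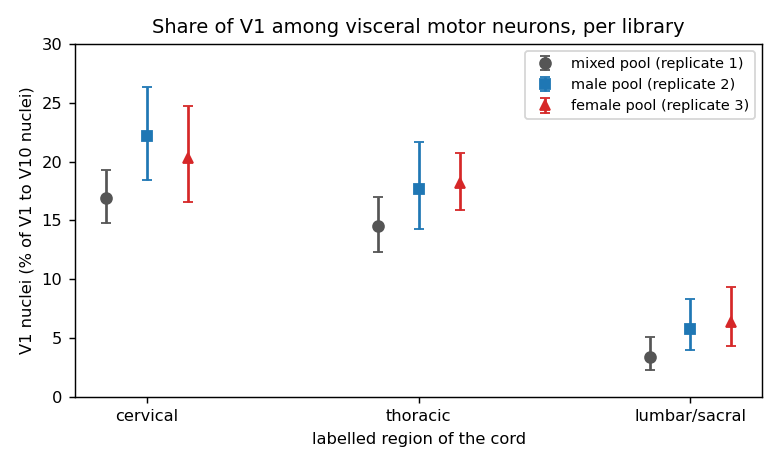
V1 nuclei as a percent of all V1 to V10 nuclei (y axis) in each library, by labelled region (x axis); symbols give the pool and bars the 95% Wilson interval, which covers counting error only. The lumbar/sacral libraries lie between 3.42% and 6.37%, below the lowest of the others at 14.5%.

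V1 was set apart from the other visceral clusters by a small number of genes, led by transcription factors, a lipid enzyme and an adhesion molecule. *Nfib*, a transcription factor of the nuclear factor I family, ran from 154 to 400.0 CPM in V1 with a median of 242, and from 6.92 to 22.4 CPM in V2 to V10 together. *Agmo*, an enzyme that cleaves ether lipids, ran from 39.2 to 419 CPM with a median of 215, against 4.03 to 19.7 CPM. *Foxp2*, a forkhead transcription factor, ran from 147 to 539.7 CPM with a median of 369, against 7.80 to 61.2 CPM. For each of these genes the lowest V1 library lay above the highest V2 to V10 sum. The differences, V1 minus V2 to V10 of the same library on the log2(CPM + 5) scale, were 3.88 ± 0.54, 3.78 ± 1.29 and 3.47 ± 1.03 in that order (SD, n = 9 libraries). In the mouse genome GRCm38, *Nfib* (ENSMUSG00000008575.17) lies on chromosome 4 from 82290173 to 82705750 on the minus strand. *Agmo* (ENSMUSG00000050103.18) lies on chromosome 12 from 37241641 to 37582202 and *Foxp2* (ENSMUSG00000029563.16) on chromosome 6 from 14901349 to 15441977, both on the plus strand.

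Of 10824 genes that reached 10 CPM in at least 3 of the sums, 27 (0.249%) were higher in V1 by at least 1 on this scale in all 9 libraries, and 58 (0.536%) were lower. The clusters were drawn by the authors from these same genes, so the differences describe V1 and carry no test. *Tenm2*, a teneurin that acts as an adhesion molecule at synapses, ran from 3036 to 6120.2 CPM in V1, against 358 to 1013 CPM in V2 to V10. *Ankfn1* and *Ptchd4* were higher in V1 by 2.73 ± 0.61 and 2.63 ± 0.48, and *Thsd7b* and *Zfp804a* by 2.22 ± 0.29 and 2.20 ± 0.42. *Hpgds*, which makes prostaglandin D from prostaglandin H, was at 169.9 to 553 CPM in V1 and at 25.4 to 155 CPM in V2 to V10. *Colec12*, a scavenger receptor, was at 113 to 261 CPM against 6.23 to 61.1 CPM. The zinc finger gene *Zfp536* differed by 2.05 ± 1.07 and *Palmd* by 2.33 ± 0.67, with V1 levels of 199 to 302 and 32.1 to 128 CPM. None of these V1 ranges overlapped that of V2 to V10.

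Genes that were low in V1 included receptors, cadherins and matrix proteins that other visceral clusters carry. *Tmem132d* had a median of 11.4 CPM in V1 and 312 CPM in V2 to V10, a difference of -4.06 ± 1.16. *Grm8*, a metabotropic glutamate receptor, had medians of 51.0 and 342 CPM. *Cdh6* and *Cdh9* are type II cadherins, which sort neurons into pools. *Cdh6* ran from 3.16 to 59.8 CPM in V1 and from 158 to 591 CPM in V2 to V10, and *Cdh9* from 0 to 10.5 CPM and from 51.6 to 91.6 CPM. *Cpa6*, a carboxypeptidase, *Postn*, a matrix protein, and *Tox3*, an HMG box factor, were lower by 3.62 ± 1.14, 3.37 ± 0.92 and 3.30 ± 0.63. Mean *Postn* was lower still in V6, V8 and V9, at 1.08 to 2.73 CPM against 6.83 CPM in V1. V10 was also low in *Cpa6* (mean 19.3 against 12.3 CPM in V1), *Tox3* (16.3 against 6.85 CPM) and *Cdh9* (9.50 against 3.15 CPM). Except for *Grm8*, the highest V1 library lay below the lowest V2 to V10 sum for each of these genes.

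**Figure D2:**
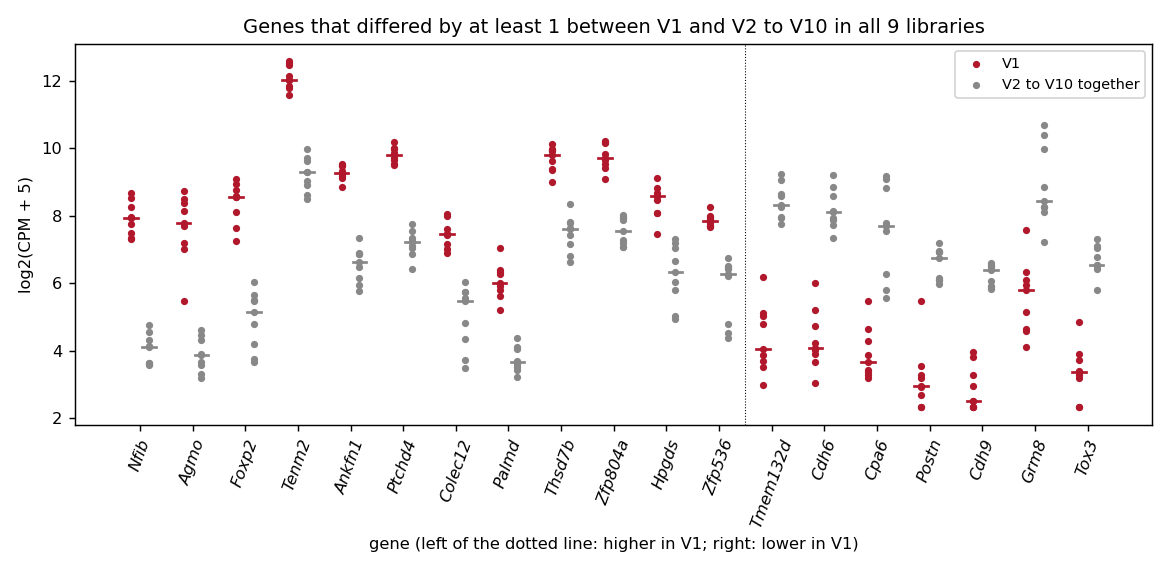
Levels on the log2(CPM + 5) scale (y axis) of 12 genes with the highest and 7 with the lowest mean differences (x axis) in V1 and in V2 to V10 together; each point is a library and the short lines are medians over 9 libraries. *Nfib* and *Agmo* show the widest gap on the left, and *Tmem132d* and *Cdh6* on the right.

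In single nuclei these genes were frequent in V1 but not universal. *Tenm2* had a corrected count in 100% of V1 nuclei in every library, against 63.5% ± 6.63 of V2 to V10 nuclei (SD, n = 9 libraries). *Nfib* had one in 68.3% ± 19.7 of V1 nuclei and 6.75% ± 3.58 of V2 to V10 nuclei, and *Foxp2* in 71.1% ± 17.9 and 11.4% ± 5.95. *Agmo* was found in 50.8% ± 24.9 of V1 nuclei and 5.38% ± 1.87 of the others. The median total per nucleus differed little between V1 and V2 to V10 of a library, for example 6813 and 7049 corrected counts in cervical replicate 1. Between libraries the V1 median ran from 4656 in lumbar/sacral replicate 1 to 16154 in cervical replicate 2. With every nucleus thinned to 4600 corrected counts, which left out 10 V1 nuclei, *Nfib* was found in 59.1% ± 16.0 of V1 and 4.01% ± 1.81 of V2 to V10 nuclei. *Foxp2* was then found in 61.2% ± 18.8 and 8.56% ± 5.29 of them.

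Across the single clusters, several of the leading genes were shared with others at a lower level. *Nfib* had a mean of 249.9 ± 89.3 CPM in V1 (SD, n = 9 libraries) and its next highest visceral level in V10, at 37.1 ± 35.7 CPM (SD, n = 7). It was not particular to visceral neurons, since skeletal motor neurons had 193 ± 56.0 CPM. *Agmo* was at 234 ± 122 CPM in V1, at 67.6 ± 89.6 CPM in V10 and at 14.0 CPM or less in the other visceral clusters. *Foxp2* was at 354 ± 129 CPM in V1, 179 ± 141 CPM in V9 and 98.0 ± 45.9 CPM in V8, and at 17.4 CPM or less elsewhere among visceral clusters. The spread of V9 over its 6 libraries reached into that of V1. *Trhr*, the receptor for thyrotropin-releasing hormone, which brainstem neurons release in the spinal cord, was at 101 ± 40.5 CPM in V1 and at 15.8 CPM or less in V2 to V10. *Zfp536* was higher in V9 (373 ± 103 CPM) than in V1 (231 ± 32.6 CPM), so its gap to V2 to V10 as a whole does not hold against that cluster. *Zeb2* was high in V1, V10, V3 and V9 and low in V7 (41.9 ± 13.7 CPM) and V8 (7.79 ± 3.99 CPM).

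**Figure D3:**
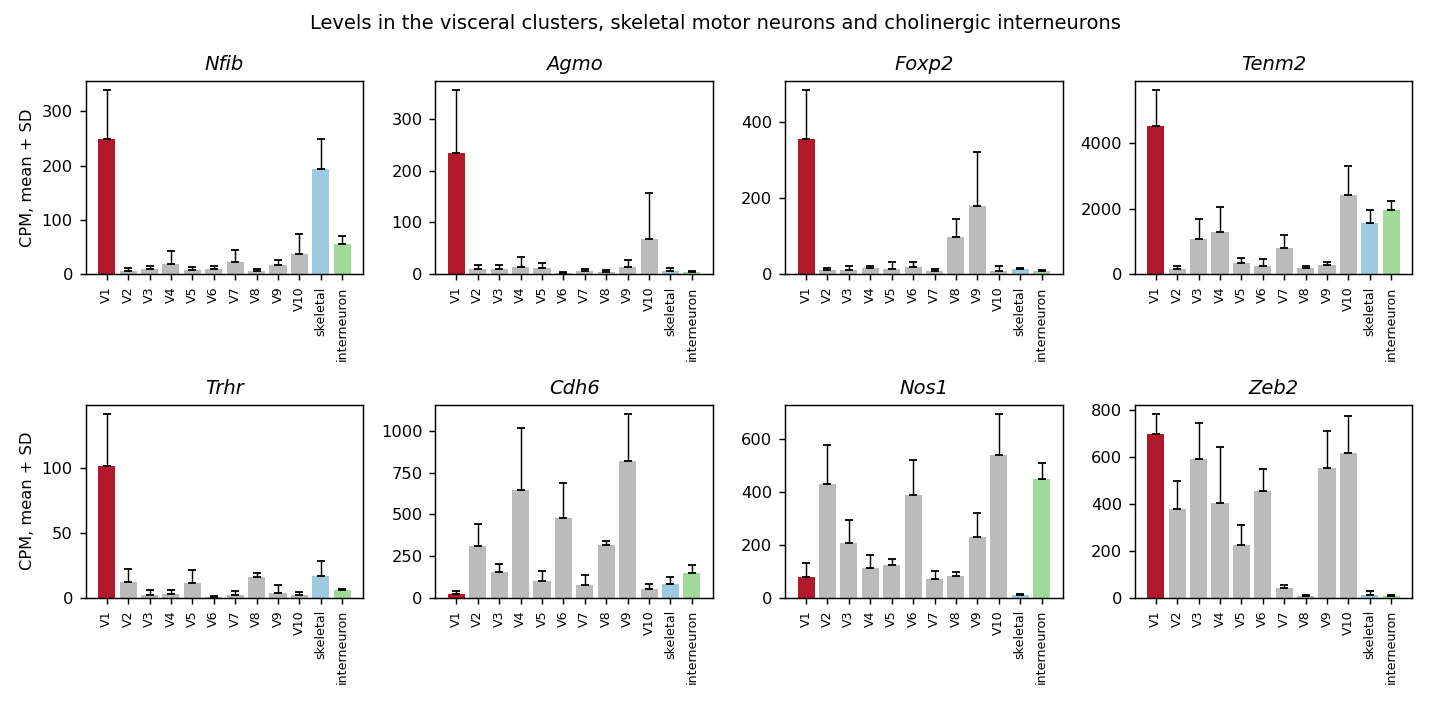
Mean CPM (y axis, bars; lines give + SD over libraries with at least 10 nuclei) of 8 genes in V1 (red), V2 to V10 (grey), skeletal motor neurons and cholinergic interneurons. *Trhr* and *Agmo* are highest in V1, *Foxp2* is shared with V9 and V8, and *Nfib* is also present in skeletal motor neurons.

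V3, V4 and V9 were the visceral clusters most like V1 on like libraries, by the mean Pearson correlation of log2(CPM + 5) over genes within libraries, given as a description, since the clusters of a library share its depth. Over the 6 cervical and thoracic libraries in which V9 reached 10 nuclei, the mean correlation was 0.904 with V3 (0.876 to 0.932), 0.898 with V4 (0.864 to 0.922) and 0.890 with V9 (0.850 to 0.917). These ranges overlapped one another, and those of V2, V5 (4 of these libraries), V6, V7 and V10, whose means were 0.874 to 0.889. V8 reached 10 nuclei in the 3 lumbar/sacral libraries only and was not compared in this order. Against V9, 93 of 10408 genes (0.894%) were higher and 74 (0.711%) lower in V1 by at least 1 in every library. *Gabrg1*, a subunit of the GABA-A receptor, had a mean of 208 CPM in V1 and 3.12 CPM in V9, and *Hpgds* 400.3 and 17.0 CPM. *Ndst4*, a heparan sulfate enzyme, and *Unc5d*, a netrin receptor, went the other way, at 94.3 and 2589.5 CPM and at 169 and 3002 CPM. Against V3, 46 of 11016 genes (0.418%) were higher and 61 (0.554%) lower, with *Foxp2*, *Nfib*, *Agmo* and *Trhr* the highest differences and *Postn*, at 6.83 and 369 CPM, the lowest. Against V4, 56 of 11113 genes (0.504%) were higher and 59 (0.531%) lower. *Ptchd4* and *Gabrg3*, another GABA-A receptor subunit, were at 898 and 2083 CPM in V1 and at 40.7 and 124 CPM in V4. *Cartpt*, the CART peptide precursor, was at 6.16 CPM in V1 and 196 CPM in V4.

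Among 36 transcription factors of motor columns and visceral neurons that passed the filter, *Nfib* and *Foxp2* were higher and *Tox3* lower by at least 1 in all libraries. At this mark 0.249% of all genes were higher and 0.536% lower. The median difference of the list was -0.15, where all genes had -0.08. Of 4 genes of acetylcholine synthesis, packaging and breakdown, 0 differed by 1 in all libraries. *Slc5a7*, the choline transporter, ran from 248 to 356 CPM in V1 and from 256 to 520.0 CPM in V2 to V10. *Prima1*, the membrane anchor of acetylcholinesterase, was higher in all 9 libraries, as 3.14% of all genes were, by 0.64 ± 0.33. Its means in V2, V10 and V9, at 384, 357 and 350 CPM, were near that of V1 at 370 CPM. Of 5 Hox genes and 12 genes of peptide processing that passed the filter, 0 differed by 1 in all libraries.

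Among peptide and nitric oxide genes, *Nts* and *Nos1* differed most plainly from V2 to V10 together, in opposite directions. None reached the mark of 1 in every library. Of 12 neuropeptide and granin precursors that passed the filter, 3 were lower and 1 was higher in all 9 libraries, where 5.95% and 3.14% of all genes were. *Nts*, the neurotensin precursor, was higher in all 9 libraries by 2.30 ± 1.06, with 9.81 to 172 CPM in V1 and 2.69 to 13.9 CPM in V2 to V10. *Nos1*, neuronal nitric oxide synthase, was lower in all 9 libraries by 1.83 ± 1.02, with a median of 42.6 CPM in V1 and 250.3 CPM in V2 to V10. The highest V1 library for *Nos1*, at 146 CPM, lay below the lowest V2 to V10 sum, at 167 CPM. Low *Nos1* was shared with single clusters. V7 (69.4 ± 30.2 CPM) and V8 (80.0 ± 15.5 CPM) were near V1 (77.2 ± 54.6 CPM). The other visceral clusters had means from 113 CPM in V4 to 539 CPM in V10. *Prkg1*, the cyclic GMP kinase that acts downstream of nitric oxide, was also lower in all libraries, by 1.35 ± 0.31. It was 1 of 5 genes of nitric oxide and cyclic nucleotide signalling, of 22 that passed the filter, that were lower in all 9, as were 5.95% of all genes. *Cartpt* and *Penk*, the enkephalin precursor, were chosen after their values were seen. They had medians of 4.13 and 4.14 CPM in V1 and of 68.8 and 11.1 CPM in V2 to V10, with ranges that overlapped.

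Among receptor genes, as among all genes, more were lower than higher in V1 at the mark of 1 in every library. The shares of all genes at this mark were 0.536% lower and 0.249% higher. Of 6 metabotropic glutamate receptors that passed the filter, 5 were lower in all 9 libraries, where 5.95% of all genes were. *Grm8* was lower by at least 1 in every library. The median difference of the list was -1.31. Of 23 neuropeptide and hormone receptors, *Tacr1*, the receptor for substance P, was lower in every library by at least 1, at 11.3 to 29.7 CPM against 55.4 to 199 CPM. Its mean was lower still in V3, V6 and V10, at 8.58 to 14.9 CPM against 22.9 CPM in V1. Of 5 adrenergic and dopamine receptors, *Adra1b* was lower by at least 1 in every library, with 0 to 6.53 CPM in V1 and 33.6 to 60.1 CPM in V2 to V10. Low *Adra1b* was shared with V9 and V6, at means of 4.93 and 6.69 CPM against 4.19 CPM in V1. *Adrb1* was higher in all 9 libraries by 1.18 ± 0.52, at 6.52 to 23.4 CPM against 1.07 to 5.65 CPM. Of 5 steroid hormone receptors, *Nr3c1*, the glucocorticoid receptor, was lower by at least 1 in every library, with a median of 2.24 CPM against 31.2 CPM. V6 and V9 were also low in *Nr3c1*, at means of 3.94 and 4.60 CPM against 3.67 CPM in V1. *Grid1* of 17 ionotropic glutamate receptors and *Gabrq* of 19 GABA and glycine receptors were lower by at least 1 in every library. Of the GABA and glycine receptors 6 were higher and 4 lower in all 9 libraries, where 3.14% and 5.95% of all genes were. *Gabrg3* was 1 of the 6, by 1.16 ± 0.68, and *Htr2c*, of 6 serotonin receptors, was higher in all 9 by 0.91 ± 0.86. Single clusters passed V1 in these genes. Mean *Gabrg3* was 3578 CPM in V10 and 2445 CPM in V5 against 2083 CPM in V1, and mean *Htr2c* 1712 CPM in V6 against 1334 CPM. *Grid1* was lower in V9 than in V1, at means of 208 and 265 CPM. None of the 3 muscarinic and nicotinic receptors that passed the filter differed by 1 in all libraries.

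Among channel genes, *Kcnq5* and *Piezo2* were lower at this mark and 0 were higher, where 0.536% and 0.249% of all genes were. Of 45 potassium channel genes, *Kcnq5*, which gives an M-type current, was lower by at least 1 in every library, at 45.3 to 199 CPM against 279.5 to 473 CPM. Of 27 sodium, calcium and HCN channel genes none passed this mark, and *Cacnb2*, a calcium channel subunit, was higher in all 9 libraries by 1.25 ± 0.38. Of 11 TRP and Piezo channels, *Piezo2*, a mechanically gated channel, was lower by 2.05 ± 1.30, with 0 to 60.5 CPM in V1 and 31.2 to 211 CPM in V2 to V10. Its mean was lower still in V6, V9 and V10, at 3.44 to 8.02 CPM against 23.9 CPM in V1. *Nfib*, *Agmo*, *Adamts18*, *Piezo2* and *Fat4* are among the subcluster markers that were picked for display from these same nuclei, and *Hpgds*, *Cpa6* and *Fam19a2* among the class markers, so these genes are not independent evidence.

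Among guidance, adhesion, trophic and matrix genes, 1 was higher and 10 were lower at this mark, where 0.249% and 0.536% of all genes were. Of 49 guidance genes, *Unc5d*, *Nrp1*, a semaphorin and VEGF receptor, and *Ephb1* were lower by at least 1 in every library, and 0 were higher. *Nrp1* ran from 7.56 to 49.0 CPM in V1 and from 185 to 342 CPM in V2 to V10. Of 20 cadherins, *Cdh11* was higher, at 368 to 797 CPM against 80.6 to 269.7 CPM, while *Cdh6* and *Cdh9* were lower. The protocadherins *Pcdh7* and *Pcdh15* were higher in all 9 libraries by 1.18 ± 0.40 and 1.04 ± 0.19. Mean *Pcdh7* was higher still in V9, at 3637 CPM against 2620 CPM in V1. Mean *Pcdh15* was 2935 CPM in V7, 2629 CPM in V5 and 2542 CPM in V3, within the spread of V1 (2963 ± 868 CPM). Of 29 trophic factors and receptors, *Gfra1*, the GDNF co-receptor, *Bdnf* and *Lifr* were lower by at least 1 in every library and 0 were higher. *Gfra1* had a median of 10.5 CPM in V1 and 97.7 CPM in V2 to V10. Some low levels were shared with single clusters. Means were below V1 for *Unc5d* in V8 (97.2 against 149.7 CPM), *Ephb1* in V9 (6.99 against 9.42 CPM) and *Lifr* in V7 (6.94 against 9.18 CPM). Mean *Bdnf* was 1.46 CPM in V4 and 0 in V9, against 2.47 CPM in V1. Of 43 matrix genes, *Postn* and the protease *Adamts18* were lower by at least 1, and to any degree 15 were lower and 5 higher in all 9 libraries, where 5.95% and 3.14% of all genes were.

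As labelled, no gene was called between thoracic and cervical V1 nuclei. In limma on the 6 V1 sums, 0 of 9262 genes were called at an adjusted p under 0.05, and 291 had an unadjusted p under 0.05. Without the 2 male libraries whose Hox genes went against their labels, 29 of 8294 genes (0.35%) were called in 2 against 2 libraries, 7 higher (0.0844%) and 22 lower (0.265%) in thoracic V1. With median-of-ratios scaling in place of CPM, the same libraries gave 48 calls, 9 higher and 39 lower. With the pool of mice as a block they gave 45 calls (0.543%), among them all 29. The libraries left out did not enter this fit. In 25 of the 29 genes (86.2%) the library labelled thoracic replicate 2 differed from that labelled cervical replicate 2 with the opposite sign, against 45.6% of all genes tested.

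*Nos1* was at 137 and 129 CPM in cervical replicates 1 and 3 and at 23.9 and 30.4 CPM in thoracic replicates 1 and 3. Its change was -2.11 ± 0.22 on the log2(CPM + 5) scale (SE, limma, adjusted p = 0.0084). *Grm5*, a metabotropic glutamate receptor, was at 842 and 865 CPM in the same cervical libraries and at 279.5 and 247 CPM in the thoracic ones (limma, adjusted p = 0.0085). The libraries labelled cervical and thoracic replicate 2 had 42.6 and 146 CPM of *Nos1* and 411 and 595 CPM of *Grm5*, in the opposite order. *Dock4*, *Ptprt*, *Shisa9*, *Erbb4*, *Cntnap4*, *Nxph1* and *Pcsk2* were the other genes named as lower in thoracic V1, by 1.36 to 2.02. *Erbb4* is a neuregulin receptor and *Pcsk2* a convertase that cuts peptide precursors. Of 16 ionotropic glutamate receptors tested, *Grin3a* and *Grid1* were among the 22 lower genes, and of 16 GABA and glycine receptors, *Glra1*.

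Genes higher in thoracic V1 were fewer. *Kcnh7*, a potassium channel of the ERG family, was at 372 and 362 CPM in cervical replicates 1 and 3 and at 1429 and 929 CPM in thoracic replicates 1 and 3. *Chrm3*, the M3 muscarinic receptor, was at 24.4 and 26.1 CPM and at 119 and 82.2 CPM. *Zfp804b* was at 223 and 269 CPM and at 1161 and 719 CPM. Their changes were 1.64 ± 0.23, 1.78 ± 0.25 and 1.88 ± 0.24 (SE), with adjusted p = 0.023, 0.0226 and 0.0139 in limma. *Ptprz1*, *Nr2f1*, a nuclear receptor that patterns neurons, and *Mgat4c* were also higher, by 1.80, 1.94 and 1.32. The library labelled thoracic replicate 2 had 174 CPM of *Kcnh7* and 75.9 CPM of *Zfp804b*, and that labelled cervical replicate 2 had 1062 and 764 CPM.

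**Figure D4:**
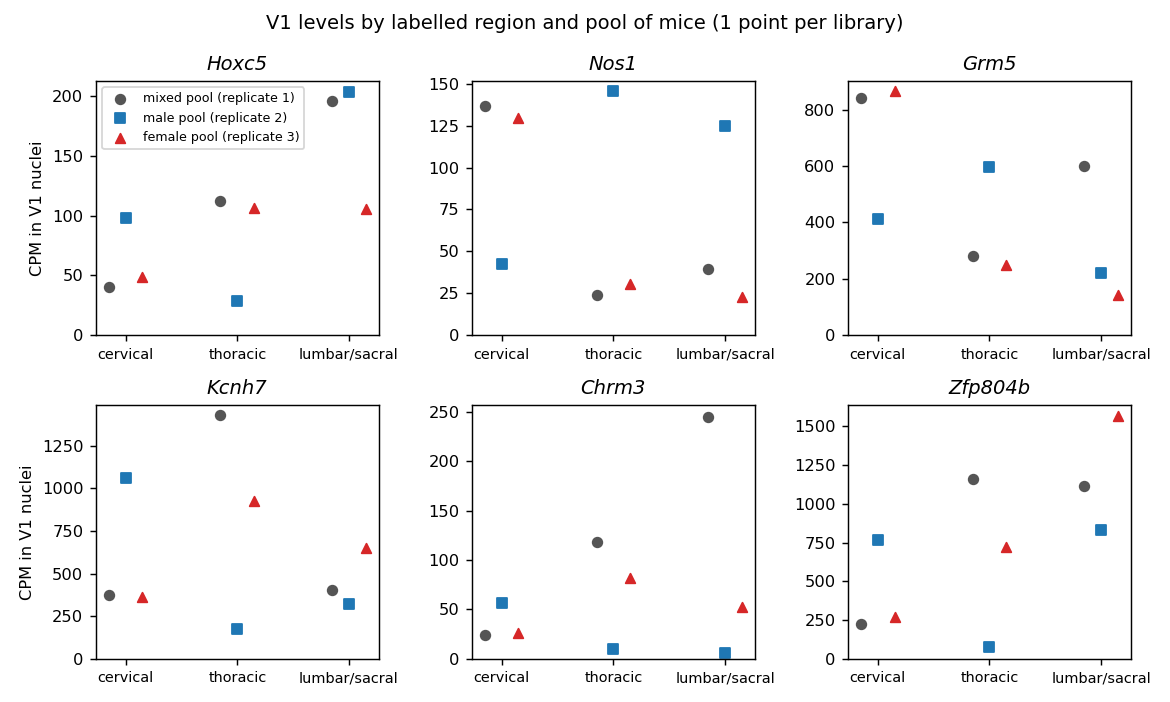
CPM in V1 nuclei (y axis) of *Hoxc5* and 5 genes called between thoracic and cervical V1 without the male pair, by labelled region (x axis), with 1 point per library and the symbol for the pool. In each panel the blue squares of the male pool lie in the opposite order to the other pools in cervical and thoracic cord; *Nos1* is at 42.6 and 146 CPM there.

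Of the 29 genes called between regions in V1 without the male pair, 2 were also called as different from the other visceral clusters, *Kcnh7* and *Chrm3*. The difference between regions in V1 was tested against that in V2 to V10 of the same libraries. As labelled, 0 of 10206 genes were called in limma, with 522 at an unadjusted p under 0.05. Without the male pair, 17 of 9356 (0.182%) were called, 16 (0.171%) with a higher thoracic minus cervical difference in V1. With the pool of mice as a block 29 were called (0.31%), among them all 17. *Kcnh7* was at 844 and 868 CPM in cervical and 753 and 526 CPM in thoracic V2 to V10, and its difference from V1 was 2.08 ± 0.18 (SE, limma, adjusted p = 0.0215). *Chrm3* differed from V2 to V10 by 1.71 ± 0.21 (SE, limma, adjusted p = 0.0447). For *Nos1*, at 268 and 260.4 CPM in cervical and 250.3 and 221 CPM in thoracic V2 to V10, the difference was -1.95 ± 0.28 and missed the threshold (SE, limma, adjusted p = 0.0686). *Gabrg3* was at 2665 and 2623 CPM in cervical and 2630.0 and 1899 CPM in thoracic V1, while V2 to V10 went from 1891 and 1950.4 CPM to 615 and 428 CPM (limma, adjusted p = 0.0226). Its change thus lay mainly in V2 to V10, and it was not called between regions in V1. Cluster V5 held 198 and 77 nuclei in these cervical libraries and 15 and 1 in the thoracic ones, so the make-up of V2 to V10 moved with the region, and its part in these calls was not tested.

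V1 nuclei of the lumbar/sacral cord gave no call against the mean of cervical and thoracic V1. Of 9971 genes, 0 were called in limma, 973 had an unadjusted p under 0.05, and *Sema3e* and *Vsnl1* came nearest, with an adjusted p = 0.0557. This fit has a term for thoracic against cervical that used the labels, also for the male pair with contrary Hox genes. It was not run with the pair left out. *Vsnl1*, a neuronal calcium sensor, was at 186, 153 and 159 CPM in the lumbar/sacral libraries and between 312 and 417 CPM in the other 6. *Cntn3*, a contactin, was at 196, 176 and 302 CPM, against 426 to 611 CPM. *Sema3e*, a secreted semaphorin, had no count in the 3 lumbar/sacral V1 sums and 17.4 to 34.2 CPM in the others. On counting error alone, the 3 lumbar/sacral sums together allow up to 7.30 CPM at 3 counts. Against that limit the mean of 23.7 CPM elsewhere was at least 3.24-fold higher. The limit leaves out the spread between pools and takes model-corrected counts as if they were reads. With the pool of mice as a block, which the shared mice allow, 7 genes (0.0702%) were called. *Cntn3*, *Cdh18*, *Nts*, *Vsnl1*, *Sema3e* and *Gm28905* were lower and *Gm26883* was higher, with an adjusted p between 0.0234 and 0.0353 in limma. *Nts* was at 9.81, 39.6 and 30.2 CPM in lumbar/sacral V1 and at 61.4 to 172 CPM in the rest. With median-of-ratios scaling and no block 3 genes (0.0301%) were called. The lumbar/sacral sums rest on 23 to 26 nuclei each, and in simulated data this comparison made more false calls than its threshold sets.

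V1 of the male and the female pool differed in genes of the sex chromosomes. Of 9590 genes, 3 (0.0313%) were called in limma on replicates 2 and 3 with a term for region. That term used the labels, also for the male pair with contrary Hox genes. The fit was not run with the pair left out, and the effect of its labels on the calls was not tested. *Xist* was at 748, 949 and 899.6 CPM in female V1, and male V1 had 0, 3.16 and 0 CPM. *Uty* was at 157, 141 and 96.3 CPM and *Eif2s3y* at 105, 123 and 181 CPM in the male pool, with at most 1.31 CPM of either in the female pool. The mixed pool had 333 to 365 CPM of *Xist*. Each sex was 1 pool, so sex and pool cannot be told apart. An unadjusted p under 0.05 was found for 551 genes, and median-of-ratios scaling gave 5 calls (0.0521%). Without the lumbar/sacral library of replicate 3, 0 genes were called. *Xist* did not pass the filter there, and *Uty* and *Eif2s3y* kept changes of 4.68 and 4.57.

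V1 nuclei were not uniform. *Galntl6*, of the family of enzymes that start O-linked sugar chains, had no corrected count in 209 V1 nuclei (26.2%), 1 or 2 counts in 186 (23.3%) and 3 or more in 403 (50.5%). The gene was chosen after its values were seen, as were those below, and the split is a range of 1 gene and not a cell type. In the 6 cervical and thoracic libraries that had at least 10 nuclei of each kind, nuclei without *Galntl6* held more *Tenm3*, another teneurin. Its median over libraries was 1346 CPM, against 353 CPM in nuclei with 3 or more counts. *Flrt2*, a guidance and adhesion protein, went the same way, with medians of 432 and 98.2 CPM, and so did the unnamed transcript *C130073E24Rik*. *Kirrel3*, an adhesion molecule of the immunoglobulin family, was lower without *Galntl6*, at medians of 36.1 and 465 CPM, as was the netrin receptor *Unc5c*, at 131 and 557 CPM. All 5 kept their direction in 6 of 6 libraries, and *Epha6* did too, by -1.23 ± 0.50. Of the genes that set V1 apart, 3 were compared over this split. *Trhr* was higher without *Galntl6* in 5 of 6 libraries, with medians of 153 and 103 CPM, by 0.48 ± 0.64, less than the spread between libraries. *Nfib* had medians of 239.8 and 266 CPM, *Agmo* 303 and 278 CPM and *Nos1* 85.3 and 71.7 CPM. The share of V1 nuclei without *Galntl6* ran from 15.4% to 45.8% over the 9 libraries, both ends in lumbar/sacral libraries of 26 and 24 nuclei.

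**Figure D5:**
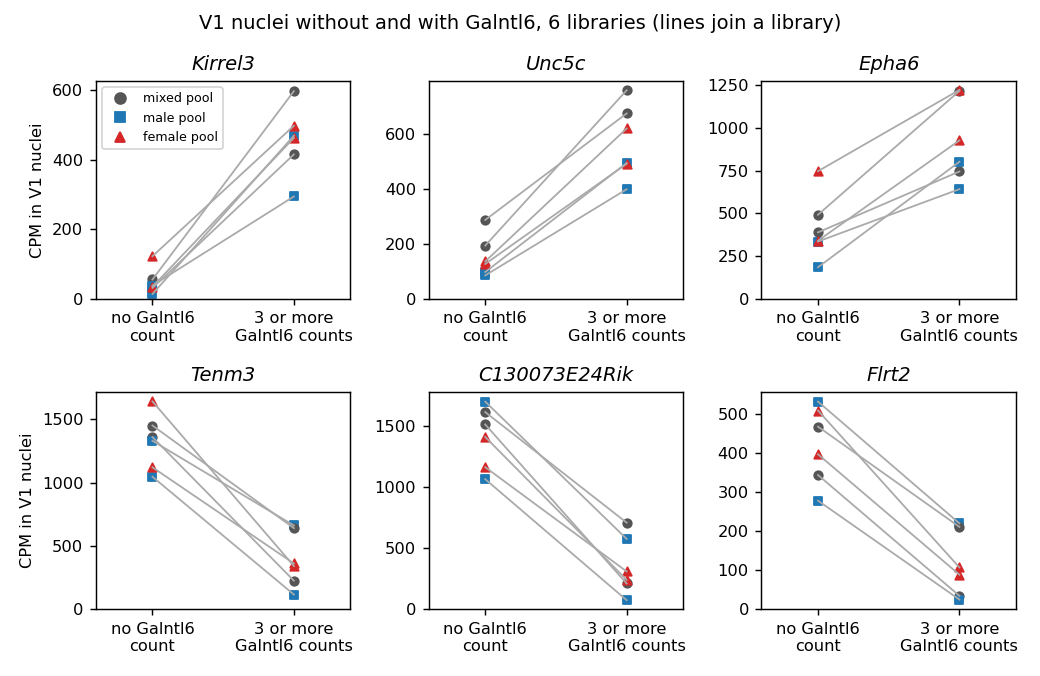
CPM in V1 nuclei (y axis) with no *Galntl6* count and with 3 or more (x axis) for 6 genes; lines join the values of a library, in the 6 libraries with at least 10 nuclei of each kind. *Kirrel3*, *Unc5c* and *Epha6* rise and *Tenm3*, *C130073E24Rik* and *Flrt2* fall from left to right in every library.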

How the data were processed

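Nuclei were profiled by 10x Chromium 3' single nucleus RNA sequencing. Reads were aligned by the authors to GRCm38 with introns included (Cell Ranger 3.1.0), and nuclei were filtered and normalised by SCTransform in Seurat. The deposited values are its corrected counts, whole numbers from a model that are treated here as a score and not as reads, so no count model was run. Labels for region, pool and cluster were the authors'. The members and the 34 gene lists were chosen with earlier results of these data known.

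For each cluster and library with at least 10 nuclei, corrected counts were added up and expressed per 1000000 (CPM). Tests used limma 3.58.1 with a trend in R 4.3.3 on log2(CPM + 5), for genes at 10 CPM or more in at least 3 of the sums compared, with a threshold of 0.05 on the Benjamini-Hochberg adjusted p. Shares were compared by exact permutation tests. V1 against V2 to V10 is a description: a gene counts as higher or lower at a difference of at least 1 in every library. Genes named are the 12 highest and 8 lowest of these, up to 10 called per direction in a test, and members of lists at that mark or among the 3 highest in V1; some of these are not reported here, with clone names left out except where all called genes are given. Others were chosen after their values were seen: *Cartpt*, *Penk*, *Nos1* against V2 to V10, *Grin3a*, *Glra1*, the genes given against V9, V3 and V4, *Hoxd10*, *Hoxd11* and the *Galntl6* split. Coordinates are from GENCODE M21. Doublets were called per library by Scrublet in scanpy 1.11.5 (164 of 16042 nuclei, 1.02%) and left out as an alternative.

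V1 sums held 101977 to 1454511 corrected counts. Intervals and limits (3 counts) cover counting error only. Replicates of a region are pools of different mice. Same-numbered libraries come from the same mice, and their deviations from the region means correlated over genes by -0.10 to 0.55. The fits were tested on simulated data with known changes, where the lumbar/sacral comparison made more false calls than its threshold sets. Alternatives covered the scaling, the filter, the pseudocount, doublets, the replicate block, each library left out and the 2 libraries with contrary Hox genes. A filter on mean CPM, the fit without a region term, the last setting for the difference from V2 to V10, its combination with another scaling and with the block, and the correlations over like libraries were added after seeing the data. The other annotated nuclei, excitatory and inhibitory, were not analysed here.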

Additional observations from a re-analysis of the deposited data

Results flagged for a closer look

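Both results given here rest on a test of the difference between V1 and V2 to V10, without the libraries labelled cervical and thoracic replicate 2. For *Chrm3*, the thoracic minus cervical difference was higher in V1 than in V2 to V10 by 1.71 on the log2(CPM + 5) scale (limma, adjusted p = 0.0447). For *Kcnh7* it was higher by 2.08 (limma, adjusted p = 0.0215). With all 6 libraries as labelled, *Kcnh7* differed by 0.43 (limma, adjusted p = 0.997). In the same libraries V5 held 198 and 77 cervical and 15 and 1 thoracic nuclei, and the part of this change in either result was not tested.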

How the results depend on the processing

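V1 shares kept their direction under each alternative run. The test over 3 regions gave 0.0786 with all cholinergic nuclei as the denominator, 0.0278 with the replicate block and 0.00357 to 0.0214 when 1 library was left out. The lumbar/sacral difference gave 0.037 with the block and 0.0179 to 0.0357 without 1 library. For thoracic against cervical V1, 0 genes were called under each alternative that kept the labels, the replicate block among them, 29 without the male pair and 48 without it under median-of-ratios scaling, which moved the median change of all genes from 0.10 to 0.00 in the 6 libraries. The difference from V2 to V10 gave 17 calls without the pair and 0 otherwise. Lumbar/sacral V1 gave 3 calls under median-of-ratios scaling, 7 with the replicate block, and 0 to 7 without 1 library, 1 without lumbar/sacral replicate 2 and 7 without lumbar/sacral replicate 3. Without the male pair the block gave 45 calls for thoracic against cervical V1 and 29 for the difference from V2 to V10, and all calls made without the block were kept. With all libraries the block changed no other call of those run. The male pool against the female pool gave 5 calls under median-of-ratios scaling, 6 without the region term, and 0 to 248 when 1 library was left out: 218 without cervical replicate 2, 248 without cervical replicate 3, 1 without thoracic replicate 2 or lumbar/sacral replicate 2, and 0 without lumbar/sacral replicate 3. These fits have 1 residual degree of freedom, and the cause of the high counts was not tested. The counts against V2 to V10 moved with the pseudocount: 91 lower at 1, and 17 higher and 29 lower at 20. At 20, 48 genes were lower than in V9, 36 lower than in V3 and 37 higher than in V4. Depth limits lumbar/sacral V1, at 3 counts, to 17.0 to 29.4 CPM per library. Of the named differences from V2 to V10, 291 of the values under alternatives moved by less than 1 SD and 9 by more, and none changed sign.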

Other observations

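The lumbar/sacral V1 nuclei carried few transcripts of the most caudal Hox genes. *Hoxd11* had 2 corrected counts in the 3 lumbar/sacral V1 sums together (4.87 CPM) and 332 in V2 to V10 of the same libraries (42.8 CPM). *Hoxd10* had 0 counts in V1, which allows up to 7.30 CPM, close to its 8.63 CPM in V2 to V10. *Hoxa9*, expressed further up the cord, had 10 counts in lumbar/sacral V1 (24.3 CPM) and 336 in V2 to V10 (43.3 CPM). Low *Hoxd11* was not particular to V1. Its mean over all 9 libraries was 1.47 CPM in V1, 0.646 CPM in V4 and 1.46 CPM in V7. Over the same 9 libraries V2 and V3 had means of 19.3 and 9.83 CPM. V6 had 24.1 CPM over 8 libraries, V5 17.7 CPM over 7 and V8 63.5 CPM over 3 lumbar/sacral libraries. *Hoxd11* was at 0 CPM in every cervical and thoracic V2 to V10 sum. Means over unlike sets of libraries therefore do not rank these clusters. These genes were chosen after their values were seen, the counts carry counting error only, and no test was made.

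The immediate early gene *Nr4a1* was lower in V1 than in V2 to V10 in all 9 libraries, by 1.35 ± 0.75 on the log2(CPM + 5) scale (SD, n = 9), with 0 to 20.9 CPM in V1 and 22.1 to 53.7 CPM in V2 to V10. Its mean was lower still in V9 and V10, at 3.21 and 4.90 CPM against 11.2 CPM in V1. Of 6 immediate early genes that passed the filter, 3 were lower in all 9 libraries, where 5.95% of all genes were.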
